A study of Mus musculus with 12 samples.

Results

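The AP-1 genes of the Fos, Jun and ATF families were followed in hyperplastic mammary glands of mice with and without Stat3 or Chi3l1. The 10 members, Fos, Fosb, Fosl1, Fosl2, Jun, Junb, Jund, Atf3, Batf and Maff, were taken by gene symbol from a table of 54532 genes, and each symbol was found once. Levels are in FPKM, fragment counts divided by gene length and by library depth. Of the 10, 8 reached 1 FPKM in at least 4 of the 12 libraries and were tested; Fosb and Fosl1 reached it in 2 libraries each and are given as levels.

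The glands came from female FVB/N mice of the MIC model, where doxycycline induces polyoma middle T, a viral oncogene, and the recombinase Cre in mammary epithelial cells. All mice received doxycycline at 2 mg/ml in the drinking water, and the titles give the time as 2 wk. The groups had 4 libraries each: MIC WT, with both genes present, MIC Stat3 ko, and MIC Chi3l1 ko. Thus all 3 share the oncogene, the Cre and the doxycycline. The labels do not give the knockout alleles, the animals' age, a batch or a pairing, nor whether the 4 samples of a group are 4 animals. The p-values therefore measure only spread among samples, which may be technical. Libraries are numbered within each group in the order in which they are listed. RNA was total RNA from whole gland, in which other cells keep Stat3 if its deletion follows the epithelial Cre.

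AP-1 is a dimer of proteins with a basic leucine zipper, and it binds the sequence TGANTCA in regulatory DNA. Jun proteins can pair with each other or with Fos proteins, whereas Fos proteins need a Jun partner, so the mixture of subunits in a cell sets which dimers can form. Many of these genes are immediate-early genes, transcribed within minutes of a growth factor, cytokine or stress signal through MAP kinases, serum response factor and, for Fos and Junb, STAT3. In the mammary gland AP-1 and STAT3 are both known for their part in involution, the regression of the gland after lactation.

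The targeted genes were read first. Stat3 stood at 49.6, 49.7, 46.2 and 46.4 FPKM in WT 1 to 4, at 18.7, 17.8, 14.3 and 12.2 FPKM in Stat3 ko 1 to 4, and at 49.9, 46.7, 53.3 and 50.1 FPKM in Chi3l1 ko 1 to 4. Chil1, the symbol under which the table lists Chi3l1, had 1, 2, 0 and 0 counts in Chi3l1 ko 1 to 4. Its level was 107 to 212 FPKM in WT and 4.92 to 17.6 FPKM in Stat3 ko, so the Stat3 ko group was low in both targeted genes. Library totals were 16217143 to 22607123 counts. Mitochondrial counts took 1.0 to 1.51% of WT libraries, 4.79, 3.37, 1.88 and 1.15% of Stat3 ko 1 to 4, and 1.03 to 2.22% of Chi3l1 ko libraries. Luminal epithelial markers (Krt8, Krt18, Krt19, Epcam, Elf5 and Muc1) were detected in every group and summed to 1839 to 2637 FPKM in WT.

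The sequence just upstream of the start site is shown for Fos, the member that differed most between genotypes, and for Jun and Junb, its possible partners. RefSeq windows of 250 bases before the annotated start (build GRCm38.p6) were found for 9 of the 10 members; Fosl1 had none. Each is printed 5′ to 3′ on the gene's own strand, and capitals mark the motif matches.
Fos (chr12:85473640-85473889, + strand): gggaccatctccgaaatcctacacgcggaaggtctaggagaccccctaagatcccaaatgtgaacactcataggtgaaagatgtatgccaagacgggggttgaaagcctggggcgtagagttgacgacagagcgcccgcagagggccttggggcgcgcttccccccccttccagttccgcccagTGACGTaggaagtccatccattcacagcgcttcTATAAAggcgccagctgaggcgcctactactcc
Jun (chr4:95052223-95052472, - strand): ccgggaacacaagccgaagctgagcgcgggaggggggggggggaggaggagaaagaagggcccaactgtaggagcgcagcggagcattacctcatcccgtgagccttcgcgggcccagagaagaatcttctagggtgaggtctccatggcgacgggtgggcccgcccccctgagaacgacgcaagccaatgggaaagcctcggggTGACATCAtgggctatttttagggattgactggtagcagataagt
Junb (chr8:84978749-84978998, - strand): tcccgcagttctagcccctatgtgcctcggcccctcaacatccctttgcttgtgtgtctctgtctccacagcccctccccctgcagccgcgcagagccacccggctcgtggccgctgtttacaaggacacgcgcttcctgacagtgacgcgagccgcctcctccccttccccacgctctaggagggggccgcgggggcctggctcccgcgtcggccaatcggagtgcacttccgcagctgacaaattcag
In the Fos window TGACGT, the core of the cAMP response element, lay at positions -66 to -61 and TATAAA at -33 to -28, counted back from the start site. In the Jun window TGACATCA, the variant AP-1 site through which Jun proteins are known to act on their own gene, lay at -45 to -38. The Junb window held none of the motifs searched. The search covered both strands. It took TGANTCA for AP-1, TGACGTCA for the full cAMP response element and TGACGT for its core, which the full element contains. It also took TGACATCA, added after the Jun window had been read, TTCNNNGAA for STAT factors, TATAAA for the TATA box, and the CArG box of serum response factor. Among the windows not printed, those of Atf3 and Batf held TGACGT, 1 of the 3 Maff windows held TGACGTCA and another TGACATCA. Of 32851 RefSeq windows of this length, 6.75% held TGANTCA, 1.55% TGACGTCA, 6.47% TGACGT, 2.93% TGACATCA, 7.02% TTCNNNGAA, 1.47% the CArG box and 12.4% TATAAA. The serum response element and the STAT-binding sis-inducible element described for Fos lie further upstream than this window.

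In WT glands Jund was the most abundant member per length, at 137 ± 9.90 FPKM (SD, n = 4), followed by Junb at 59.0 ± 5.88, Jun at 53.4 ± 8.58 and Fos at 38.0 ± 5.17 FPKM. Jund lay above Junb in 4 of 4 libraries without overlap, whereas the ranges of Junb and Jun overlapped, as did those of Jun and Fos, with Fos above Jun in WT 3 alone. Atf3 at 19.7 ± 2.15 FPKM and Fosl2 at 17.7 ± 2.43 FPKM also overlapped. Below them stood Maff at 4.69 ± 0.329 FPKM, then Batf at 2.35 ± 0.497, Fosb at 1.23 ± 0.705 and Fosl1 at 0.900 ± 0.336 FPKM.

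**Figure D1:**
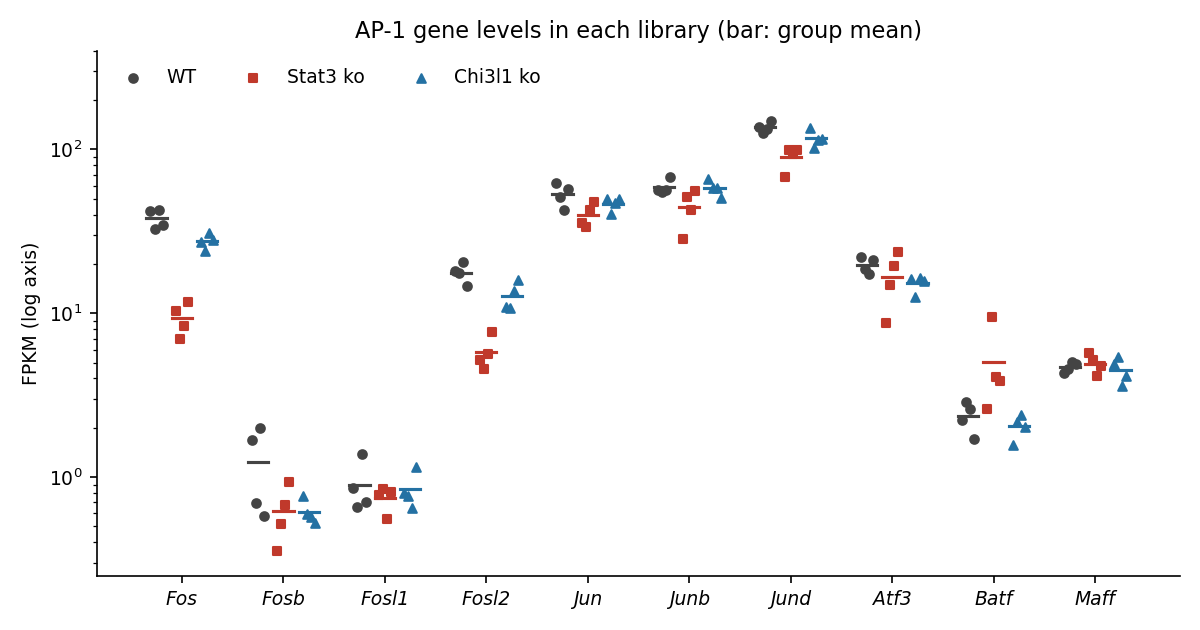
FPKM (log axis) of the 10 AP-1 genes in each of the 12 libraries, with WT as circles, Stat3 ko as squares, Chi3l1 ko as triangles and a bar at each group mean (n = 4). The 4 Stat3 ko libraries lie below all WT libraries for Fos (6.92 to 11.7 against 32.7 to 42.7 FPKM), Fosl2 and Jund, and Fosb and Fosl1 lie near or below 1 FPKM in most libraries.

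In the Stat3 ko glands, which kept 32.9% of the WT mean of Stat3 transcript, Fos stood at 24.6% and Fosl2 at 32.7% of the WT mean. Jund fell less, and no tested member was called higher, although Batf stood at 213% of the WT mean. Of the 8 tested members, 3 were called lower (Fos, Fosl2 and Jund) and 0 higher in Stat3 ko against WT by limma at an adjusted p under 0.05. Over all 13643 genes tested, 8.39% fell and 5.61% rose, 14% in either direction. At an unadjusted p under 0.05 there were 6 members and 34.1% of all genes. The median log2 difference was -0.43 over the 8 tested members, 6 of them negative, and -0.02 over all genes, 53.1% of them negative. The members were chosen with earlier results of these data known. Nothing is therefore drawn from shares above those of all genes, here or in the other comparisons. In bulk tissue, fewer cells of a type and less RNA per cell cannot be told apart.

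Fos (chr12:85473890-85477273, + strand, ENSMUSG00000021250), the founding member, which activates transcription and is induced within minutes of a stimulus, had 42.3, 32.7, 42.7 and 34.6 FPKM in WT 1 to 4. It had 10.4, 6.92, 8.32 and 11.7 FPKM in Stat3 ko 1 to 4 and 27.2, 24.1, 31.0 and 28.1 FPKM in Chi3l1 ko 1 to 4. Every Stat3 ko library lay below every Chi3l1 ko library, and every Chi3l1 ko library below every WT library. The mean in Stat3 ko, 9.34 ± 2.14 FPKM (SD, n = 4), was 24.6% of the WT mean, from 294 to 522 counts per library against 1555 to 1905. On the log2(FPKM + 1) scale used for all fitted differences, which understates changes of low genes, Fos fell by 1.93 ± 0.15 (SE) in Stat3 ko against WT (limma, adjusted p = 6.6e-05). The authors' deposited table gives a log2 fold change of -2.04 for it, with an adjusted p of 1.14e-17.

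Fosl2 (chr5:32135801-32157842, + strand, ENSMUSG00000029135), which encodes Fra-2, a longer-lived family member without the strong activation domain of Fos, had 17.997, 17.6, 20.5 and 14.6 FPKM in WT 1 to 4. It had 5.16, 4.59, 5.67 and 7.65 FPKM in Stat3 ko 1 to 4 and 10.9, 10.8, 13.6 and 15.9 FPKM in Chi3l1 ko 1 to 4. The Stat3 ko libraries lay below all others, while Chi3l1 ko 4 lay within the WT range. The mean of 5.77 ± 1.33 FPKM in Stat3 ko was 32.7% of WT, and Fosl2 fell by 1.47 ± 0.16 on the log2 scale (adjusted p = 0.00032). The authors' deposited table has Fosl2 at -1.63 with an adjusted p of 4.03e-12.

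Fosb (chr7:19302696-19310051, - strand), whose product resembles Fos and which is strongly inducible, had 1.68, 0.695, 1.99 and 0.578 FPKM in WT 1 to 4. It had 0.356, 0.514, 0.679 and 0.933 FPKM in Stat3 ko 1 to 4 and 0.767, 0.594, 0.570 and 0.521 FPKM in Chi3l1 ko 1 to 4. WT 1 and WT 3 stood above all other libraries, and WT 2 and WT 4 within the knockout ranges, so the WT coefficient of variation was 57.1%. Without the filter on low levels its difference was -0.42 ± 0.21 in Stat3 ko against WT (adjusted p = 0.27), and the authors' deposited table gives -1.0 with an adjusted p of 0.136. Fosl1 (chr19:5447703-5455945, + strand), which encodes Fra-1, a Fos protein often high in invasive tumour cells, had 0.655 to 1.39 FPKM in WT, 0.558 to 0.843 in Stat3 ko and 0.646 to 1.15 in Chi3l1 ko. These values rest on 20 to 45 counts per library, the ranges overlapped throughout, and the unfiltered difference was -0.11 ± 0.14 (adjusted p = 0.67). Ccdc85b, a gene that overlaps Fosl1, had 37.8 ± 5.39 FPKM for WT, 56.0 ± 15.0 for Stat3 ko and 37.8 ± 6.29 for Chi3l1 ko. How reads in the overlap of Ccdc85b and Fosl1 were counted is uncertain.

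Jund (chr8:70698949-70700616, + strand), the Jun gene that is expressed most steadily and often restrains growth, had 137, 126, 134 and 150 FPKM in WT 1 to 4. It had 67.6, 98.5, 93.6 and 99.5 FPKM in Stat3 ko 1 to 4 and 135, 103, 114 and 117 FPKM in Chi3l1 ko 1 to 4. All Stat3 ko libraries lay below all others, with Stat3 ko 1 lowest. Jund fell by 0.61 ± 0.13 on the log2 scale (adjusted p = 0.016) to 65.7% of the WT mean, with -0.62 and an adjusted p of 0.00208 in the authors' deposited table. This call was lost without WT 1 (adjusted p = 0.0535), without WT 4 (0.0515) and with the Chi3l1 ko libraries out of the fit (0.0580).

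Jun (chr4:95049034-95052222, - strand), the strongest activator among the Jun proteins, had 62.7, 51.1, 42.6 and 57.0 FPKM in WT 1 to 4. It had 35.7, 33.5, 42.4 and 47.5 FPKM in Stat3 ko 1 to 4 and 49.5, 40.4, 47.1 and 49.7 FPKM in Chi3l1 ko 1 to 4. Only Stat3 ko 4 lay within the WT range. The difference of -0.41 ± 0.14 in Stat3 ko against WT did not pass (adjusted p = 0.070), although it did without Stat3 ko 4 (-0.50, adjusted p = 0.029) and with DESeq2 on the recovered counts (adjusted p = 0.032; 26.6% of all genes called, against 17.3% with edgeR). Junos, an antisense gene that overlaps Jun, had 1.77 ± 0.184 FPKM for WT, 1.11 ± 0.284 for Stat3 ko and 2.01 ± 0.275 for Chi3l1 ko, and since strand use in counting is not stated, reads of the pair cannot be told apart.

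Junb (chr8:84974484-84978718, - strand), a Jun gene that can act as activator or as inhibitor of Jun, had 56.7, 54.8, 56.7 and 67.7 FPKM in WT 1 to 4. It had 28.4, 51.0, 42.9 and 55.9 FPKM in Stat3 ko 1 to 4 and 66.2, 58.0, 58.2 and 50.2 FPKM in Chi3l1 ko 1 to 4. Stat3 ko 1 was the lowest library and Stat3 ko 4 lay within the WT range. The difference of -0.44 ± 0.18 did not pass (adjusted p = 0.12), was -0.24 without Stat3 ko 1, and passed at -0.56 without Stat3 ko 4 (adjusted p = 0.046). Prdx2, a gene that overlaps Junb, had 88.1 ± 5.05 FPKM for WT, 73.3 ± 12.6 for Stat3 ko and 89.2 ± 1.93 for Chi3l1 ko. How reads in the overlap of Prdx2 and Junb were counted is uncertain.

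None of the ATF, BATF and Maf members was called in Stat3 ko against WT, and Atf3 and Batf varied widely between the Stat3 ko libraries, with coefficients of variation of 38.4% and 61.1% against 13.6% for Maff. Atf3 (chr1:191170296-191218039, - strand), a stress-induced gene whose product can repress or activate, had 22.01, 18.5, 17.4 and 21.0 FPKM in WT 1 to 4. It had 8.74, 14.9, 19.4 and 23.7 FPKM in Stat3 ko 1 to 4 and 16.2, 12.6, 16.4 and 15.7 FPKM in Chi3l1 ko 1 to 4. Stat3 ko thus held both the lowest and the highest Atf3 library of the 12. Its difference in Stat3 ko against WT was -0.30 ± 0.23 (adjusted p = 0.38), -0.05 without Stat3 ko 1, and 0.12 with the 3 libraries of over 2% mitochondrial counts omitted.

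Batf (chr12:85686669-85709087, + strand), which lacks an activation domain and pairs with Jun proteins beside IRF factors in T cells, B cells and dendritic cells, had 2.23, 2.86, 2.58 and 1.71 FPKM in WT 1 to 4. It had 2.603, 9.49, 4.10 and 3.84 FPKM in Stat3 ko 1 to 4 and 1.57, 2.16, 2.39 and 2.03 FPKM in Chi3l1 ko 1 to 4. Stat3 ko 2 stood above every other library by a wide margin, and Stat3 ko 1 lay within the WT range. The mean of 5.01 ± 3.06 FPKM was 213% of WT from 61 to 241 counts, and the difference of 0.74 ± 0.27 did not pass (adjusted p = 0.083). It passed without Stat3 ko 1 (0.94, adjusted p = 0.034) and with DESeq2 (1.1235, adjusted p = 0.017), and it dropped by more than 1.5 times to 0.43 without Stat3 ko 2 (adjusted p = 0.124). In the authors' deposited table Batf has 1.08 with an adjusted p of 0.0589. Maff (chr15:79346621-79359076, + strand), a small Maf gene whose product pairs with other bZIP factors and has no activation domain, had 4.29 to 5.02 FPKM in WT, 4.11 to 5.69 in Stat3 ko and 3.58 to 5.37 in Chi3l1 ko. The 3 ranges overlapped, with a difference of 0.05 ± 0.12 in Stat3 ko against WT (adjusted p = 0.77).

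**Figure D2:**
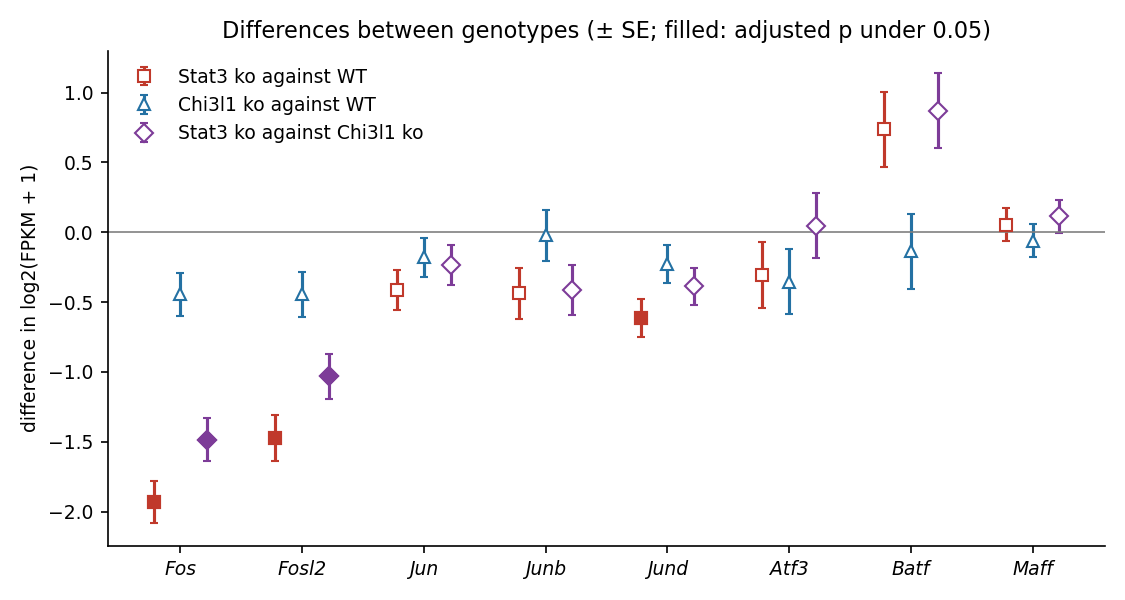
Fitted difference in log2(FPKM + 1) with its SE for the 8 tested members in the 3 comparisons, filled where the adjusted p is under 0.05. Fos and Fosl2 are filled in both comparisons of Stat3 ko, Jund against WT only, and no Chi3l1 ko against WT point is filled. WT and each knockout group enter 2 of the 3 comparisons.

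Exact two-sided permutation tests of the mean log2(FPKM + 1), 4 against 4, gave 0.0286 for Fos, Fosl2 and Jund in Stat3 ko against WT, the smallest p this design allows and the one that groups without overlap always give. The same test gave 0.0571 for Jun, Junb and Batf. The 3 members whose Stat3 ko libraries all lay below WT stand beside 11.6% of all tested genes, and the 0 members whose libraries all lay above beside 9.67%. The libraries with over 2% mitochondrial counts were Stat3 ko 1, Stat3 ko 2 and Chi3l1 ko 2. Leaving them out was an alternative added after the data were seen. Without them the differences were -1.83 for Fos, -1.29 for Fosl2 and -0.49 for Jund, all 3 still called. The share of all genes called in that setting is not given here.

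Epithelial and other cell markers differed between the same groups. The summed luminal markers were 1001, 1048, 2069 and 2225 FPKM in Stat3 ko 1 to 4, and 2 of the 6 (Elf5 and Muc1) were called lower than in WT. The median log2 difference of the 6 markers was -0.90. The sums of Stat3 ko 3 and Stat3 ko 4 lay within the WT range of 1839 to 2637 FPKM, and those of Stat3 ko 1 and Stat3 ko 2 below it. Fos was 10.4, 6.92, 8.32 and 11.7 FPKM and Fosl2 5.16, 4.59, 5.67 and 7.65 FPKM in Stat3 ko 1 to 4. A sum over these markers does not measure the share of luminal cells. T cell markers summed to 15.2 to 31.3 FPKM in WT and to 41.3, 234, 137 and 24.9 FPKM in Stat3 ko 1 to 4, and 3 of 8 were called higher (Cd2, Cd8a and Cd8b1). B cell markers summed to 14.4 to 81.1 FPKM in WT and to 238, 732, 307 and 37.9 FPKM in Stat3 ko, with 1 of 4 tested called higher (Ighm). Dendritic cell markers summed to 17.3 to 28.0 FPKM in WT and to 54.0, 131, 98.2 and 34.4 FPKM in Stat3 ko, with 4 of 5 tested called higher (Flt3, Siglech, Zbtb46 and Fscn1). Stat3 ko 2, the library with the highest Batf level, was also the highest in all 3 of these sums. Adipocyte markers summed to 35.2 to 124 FPKM in WT and to 4042, 539, 357 and 214 FPKM in Stat3 ko 1 to 4, with 3 of 6 called higher (Fabp4, Cidec and Plin1), and Stat3 ko 1, the highest, had the lowest Atf3, Junb and Jund. Stat3 ko 1 was also the highest of the 12 libraries in basal epithelial (299.7 FPKM), endothelial (96.4 FPKM) and fibroblast markers (589 FPKM), and Stat3 ko 2 in skeletal muscle markers (8411 FPKM). WT libraries ran from 51.1 to 134 FPKM for basal, 19.8 to 30.3 for endothelial, 149 to 448 for fibroblast and 10.4 to 2207 for muscle markers. In Chi3l1 ko these sums ran from 1698 to 2293 FPKM for luminal, 17.6 to 32.1 for T cell, 14.3 to 33.4 for B cell, 18.3 to 21.4 for dendritic and 59.3 to 536 for adipocyte markers. Neutrophil markers summed to 27.7 to 36.3 FPKM in WT and to 4.18, 37.5, 9.65 and 6.80 FPKM in Stat3 ko 1 to 4. They ran from 26.4 to 36.9 FPKM in Chi3l1 ko. Of the 3 neutrophil markers tested, 1 was called lower in Stat3 ko than in WT and 0 higher. Apart from the neutrophil marker Ly6g in Chi3l1 ko, none of these markers was at 0 in all libraries of a group. The part of these cells in the differences of Fos, Fosl2, Jund, Junb, Atf3 and Batf was not tested.

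**Figure D3:**
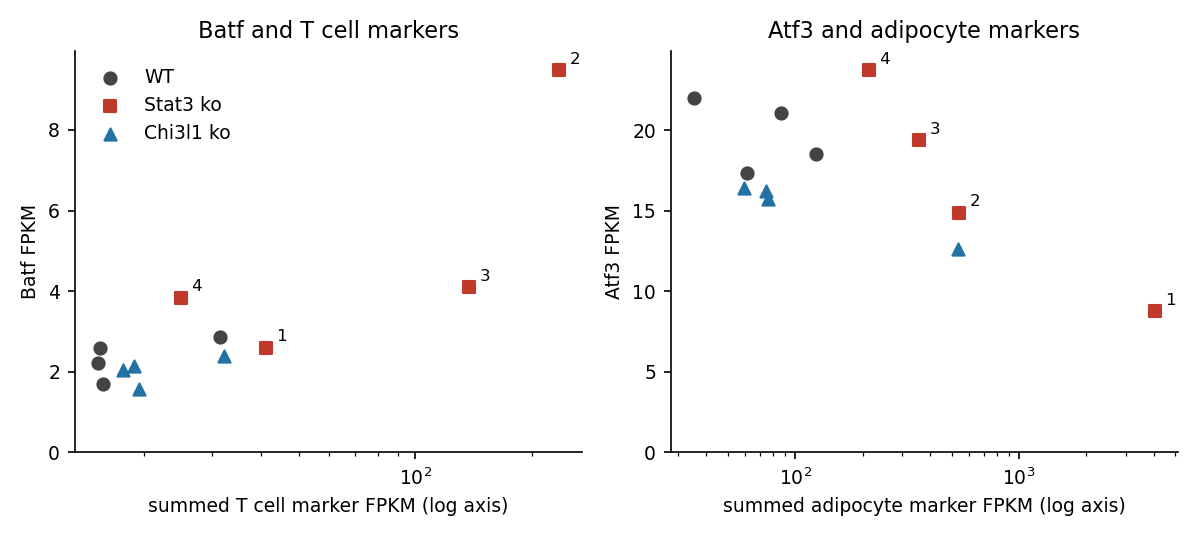
Batf FPKM against the summed FPKM of 8 T cell markers (left) and Atf3 FPKM against the summed FPKM of 6 adipocyte markers (right), both x axes logarithmic, 1 point per library, Stat3 ko libraries numbered. Stat3 ko 2 is highest for Batf (9.49 FPKM) and T cell markers (234 FPKM), and Stat3 ko 1 is lowest for Atf3 (8.74 FPKM) and highest for adipocyte markers (4042 FPKM).

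Loss of Chi3l1 gave no called change in any tested AP-1 member, and among the 8 tested the lowest levels relative to WT were those of Fos, Fosl2 and Atf3. Of the 8 tested members 0 were called against WT by limma, edgeR or DESeq2. Over all genes limma called 0.00733% (1 gene, the targeted Chil1), edgeR the same share and DESeq2 0.0586%. At an unadjusted p under 0.05 there were 2 members (Fos and Fosl2) and 1.63% of all genes. The median difference over the 8 tested members was -0.20, with 8 of 8 negative, and 0.003 over all genes, 48.8% of them negative.

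The mean of Fos in Chi3l1 ko was 27.6 ± 2.85 FPKM, 72.6% of WT, with a difference of -0.44 ± 0.15 (unadjusted p = 0.014, adjusted p = 1.0). Fosl2 had 12.8 ± 2.46 FPKM, 72.5% of WT, with a difference of -0.44 ± 0.16 (unadjusted p = 0.019). Atf3 had 15.2 ± 1.78 FPKM, 77.3% of WT, with a difference of -0.35 ± 0.23. These SE rest on a spread shared with the Stat3 ko libraries. With the Chi3l1 ko and WT libraries alone the SE was 0.112 for Fos, 0.141 for Fosl2 and 0.105 for Atf3, and none was called. Fos and Atf3 were the 2 members whose Chi3l1 ko libraries all lay below WT, which held for 1.36% of all tested genes (1.12% lay above). Fosl2 (exact permutation p = 0.0571) and Jund (0.0857) overlapped with WT. Jund differed by -0.23 ± 0.13, Jun by -0.18 ± 0.14, Batf by -0.13 ± 0.27, Maff by -0.06 ± 0.12 and Junb by -0.02 ± 0.18. The authors' deposited table lists Fos at -0.46 (adjusted p = 0.129), Fosl2 at -0.46 (0.436) and Atf3 at -0.37 (0.563) for this comparison, on the authors' own scale. It also lists Fosb at -1.0 (adjusted p = 0.730) and Jund at -0.22 (adjusted p = 1.0). Fosb, not tested here for its low level, stood at 49.6% of the WT mean in Chi3l1 ko, with an unfiltered difference of -0.42 ± 0.21 (adjusted p = 1.0). WT 1 and WT 3 lay above the Chi3l1 ko range of Fosb and WT 2 and WT 4 within it.

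Set directly against each other, the knockouts differed in Fos and Fosl2. Of the 8 tested members 2 were called lower in Stat3 ko against Chi3l1 ko (Fos and Fosl2) and 0 higher, beside 8% of all genes called lower and 5.19% called higher, 13.2% in all. Fos fell by 1.49 ± 0.15 (adjusted p = 0.00024) and Fosl2 by 1.03 ± 0.16 (adjusted p = 0.0036), with no overlap between the groups in either gene. Jund did not overlap either but missed the threshold, at -0.39 ± 0.13 (adjusted p = 0.077). All Batf libraries of Stat3 ko lay above those of Chi3l1 ko, at a difference of 0.87 ± 0.27 (adjusted p = 0.054). Batf passed in this comparison without Stat3 ko 1 (1.08, adjusted p = 0.021), without Stat3 ko 4 (0.93, 0.049), with edgeR (1.33, 0.036; 14.2% of all genes called), with DESeq2 (1.33, 0.0046; 23.9% of all genes), with a pseudocount of 0.1 (1.105, 0.047) and with the 3 libraries of over 2% mitochondrial counts omitted (0.74, 0.030). It did not pass in the other 9 alternatives, among them omission of Stat3 ko 2 (0.56, adjusted p = 0.063), no filter on low levels (0.109) and the compared groups alone (0.136). The other members differed by -0.41 ± 0.18 for Junb, -0.23 ± 0.14 for Jun, 0.11 ± 0.12 for Maff and 0.05 ± 0.23 for Atf3, none called, and that of Junb was -0.22 without Stat3 ko 1. Libraries without overlap were lower for 3 members and higher for 1, beside 10.2% and 6.85% of all genes. In that comparison 5 tested members and 31.7% of all genes had an unadjusted p under 0.05.

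The makeup of the AP-1 transcripts by family is given as a description, without a test. Fos-family levels summed to 57.8 ± 8.05 FPKM (SD, n = 4) for WT, 16.5 ± 3.48 for Stat3 ko and 41.9 ± 4.71 for Chi3l1 ko. Summed Jun-family levels were 249 ± 20.4, 174 ± 30.2 and 222 ± 20.9 FPKM. The ratio of Jun-family to Fos-family FPKM was 4.09, 4.49, 3.51 and 5.44 in WT 1 to 4, 7.90, 14.2, 11.8 and 9.60 in Stat3 ko 1 to 4, and 6.33, 5.54, 4.78 and 4.74 in Chi3l1 ko 1 to 4. The Stat3 ko ratios lay above all others, and the WT and Chi3l1 ko ranges overlapped. Within its own family Fos made up 65.8 ± 2.52% of FPKM for WT, 56.6 ± 3.86% for Stat3 ko and 66.1 ± 3.19% for Chi3l1 ko, with Stat3 ko 1 at 62.3% the only Stat3 ko library in the range of the others. Jund kept a similar share of the Jun family, at 54.9 ± 1.72%, 51.6 ± 2.01% and 52.7 ± 1.42%. Fos lay above Atf3 in 4 of 4 WT and 4 of 4 Chi3l1 ko libraries, but in 1 of 4 Stat3 ko libraries (Stat3 ko 1).

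**Figure D4:**
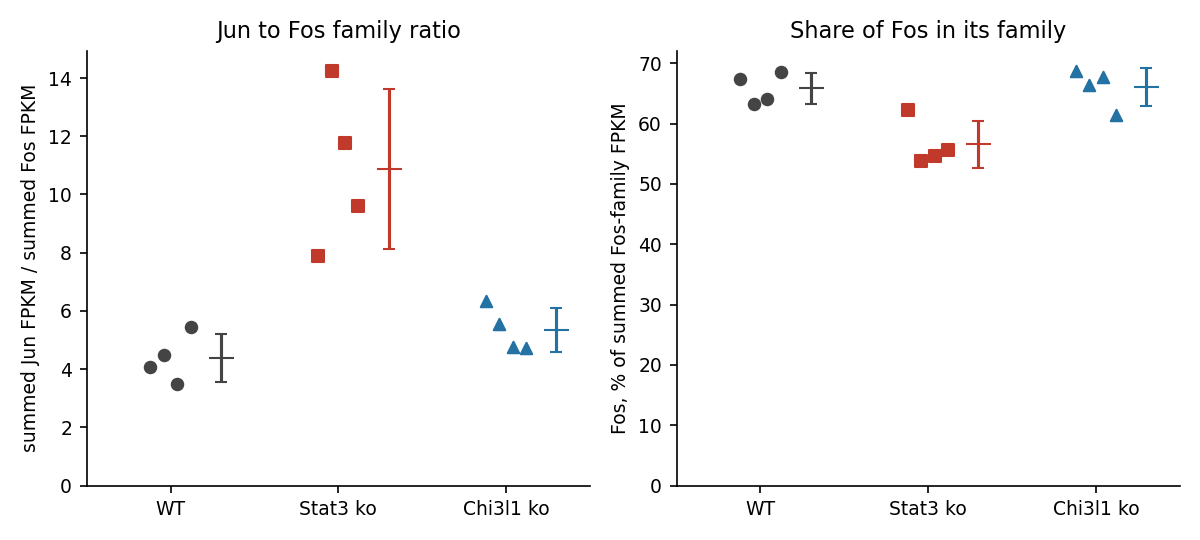
Left, summed FPKM of Jun, Junb and Jund divided by summed FPKM of Fos, Fosb, Fosl1 and Fosl2 per library; right, Fos as a percentage of the summed Fos-family FPKM; points are libraries and bars the mean ± SD (n = 4). The Stat3 ko ratios (7.90 to 14.2) lie above those of WT (3.51 to 5.44) and Chi3l1 ko (4.74 to 6.33).

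Other bZIP genes, whose products can pair with AP-1 proteins or bind related sites, changed in a few cases. Of 22 tested (23 listed), 1 rose in Stat3 ko against WT (Maf) and 4 fell (Crem, Atf7, Atf6b and Mafg), with a median difference of -0.10. Over all genes 5.61% rose and 8.39% fell. Crem, a cAMP-responsive factor, fell by 0.51 ± 0.11 from 4.94 to 3.16 FPKM (adjusted p = 0.014; 0.052 without WT 1). Maf, a large Maf factor of macrophages and T helper cells, rose by 1.15 ± 0.30 from 3.72 to 9.57 FPKM (adjusted p = 0.031), and that call did not survive omission of WT 1, WT 3, WT 4 or of Stat3 ko 1 or 2 (0.0535 to 0.0965). The macrophage markers summed to 330 to 656 FPKM in WT and 813 to 1258 FPKM in Stat3 ko, with 4 of 5 called higher (Csf1r, Cd68, Mrc1 and Lyz2) and none at 0 in a whole group; their part in the Maf difference was not tested. Atf7 (-0.45 ± 0.12, adjusted p = 0.035) and Atf6b (-0.31 ± 0.09, 0.037), the latter a stress factor of the endoplasmic reticulum, each lost the call on omission of any WT library or of Stat3 ko 1 or 2 (0.0536 to 0.107). Mafg, a small Maf gene outside the naming rule and named after its value was seen, fell by 0.35 ± 0.10 (adjusted p = 0.049), a call lost on omission of WT 1, WT 2, WT 3 or of Stat3 ko 2 or 3 (0.078 to 0.143). Against Chi3l1 ko, Maf rose and 2 fell (Crem and Atf7), beside 5.19% of all genes that rose and 8% that fell. Without the libraries with over 2% mitochondrial counts 0 rose and 1 fell against WT, and the share of all genes called there is not given here. In Chi3l1 ko against WT 0 of 22 were called by limma, edgeR or DESeq2, 0 had an unadjusted p under 0.05 by limma, and the median was 0.01.

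Among the members Fos and Batf are neighbours on chromosome 12. They lie 209396 bases apart with Jdp2, a bZIP gene whose product represses AP-1, in between. Jdp2 stood at 9.22 ± 2.68 FPKM for WT, 7.97 ± 2.17 for Stat3 ko and 8.22 ± 0.643 for Chi3l1 ko, and was not called (difference -0.18 ± 0.19 in Stat3 ko against WT, adjusted p = 0.53).

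Kinases and SRF-linked factors act upstream of the AP-1 genes. Of 31 tested (32 listed), 1 rose and 0 fell in Stat3 ko against WT, with a median of -0.04. Over all genes 5.61% rose and 8.39% fell. The gene was Mapk9, which encodes the JNK2 kinase that phosphorylates Jun, at 8.04 FPKM in WT and 10.1 FPKM in Stat3 ko (0.29 ± 0.09, adjusted p = 0.048). Its call was lost on omission of any WT library or of Stat3 ko 1 or 2 (0.065 to 0.139). With DESeq2 4 rose and 1 fell, beside 26.6% of all genes called in either direction. Against Chi3l1 ko, 0 of 31 were called by limma, 9 had an unadjusted p under 0.05, and edgeR called 1 and DESeq2 6 (3 higher, 3 lower). The shares of all genes there were 13.2% by limma, 31.7% at the unadjusted p, 14.2% by edgeR and 23.9% by DESeq2. In Chi3l1 ko against WT 0 were called by limma, edgeR or DESeq2, and 0 had an unadjusted p under 0.05 by limma.

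Other immediate-early genes were called in both directions, at a share near that of all genes (14%). Of 38 tested (39 listed), 2 rose in Stat3 ko against WT (Egr2 and Klf2) and 4 fell (Hspa1b, Trib1, Errfi1 and Hspa1a), with a median of -0.06. Egr2, a zinc finger factor induced in lymphocytes and other cells, had 1.86, 1.49, 1.57 and 1.71 FPKM in WT 1 to 4 and 3.76, 4.33, 2.90 and 3.61 FPKM in Stat3 ko 1 to 4. It rose by 0.80 ± 0.12 (adjusted p = 0.0031) without overlap, in the opposite direction to Fos. Klf2, a factor of resting T cells and endothelium, had 7.70 to 17.1 FPKM in WT and 37.7, 77.8, 36.7 and 15.4 FPKM in Stat3 ko 1 to 4. It rose by 1.55 ± 0.40 (adjusted p = 0.031), a call lost without WT 1, WT 4, Stat3 ko 1 or Stat3 ko 2 (0.0507 to 0.0915); Stat3 ko 2 was highest for it as for the T cell markers. Hspa1b, a stress-induced chaperone gene, had 31.8 to 56.3 FPKM in WT and 7.60 to 24.9 FPKM in Stat3 ko, and fell by 1.42 ± 0.30 (adjusted p = 0.014; 0.051 without WT 1). Hspa1a, its near-identical copy, fell by 0.99 ± 0.27 (adjusted p = 0.035), and how reads were split between the pair is uncertain; its call was lost without any single WT library or without Stat3 ko 1, Stat3 ko 2 or Stat3 ko 3 (0.050 to 0.109).

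Trib1, a pseudokinase gene, fell by 0.83 ± 0.20 (adjusted p = 0.024), a call lost without WT 1, WT 4 or Stat3 ko 2 (0.057 to 0.080). Errfi1, which encodes a feedback inhibitor of EGF receptors, fell by 0.85 ± 0.22 (adjusted p = 0.030), a call lost without any single WT library or Stat3 ko 2 (0.058 to 0.087). Like Fos, Errfi1 had all Chi3l1 ko libraries below WT (29.2 to 51.5 against 55.7 to 63.5 FPKM). Trib1, Errfi1 and Hspa1a lie outside the naming rule and were named after their values were seen.

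Of the standard immediate-early genes named here for their role and likewise outside the rule, Egr1, a direct target of serum response factor as Fos is, had 16.5, 15.5, 16.8 and 15.3 FPKM in WT 1 to 4. It had 10.05, 13.6, 12.2 and 22.9 FPKM in Stat3 ko 1 to 4 and 14.4, 15.6, 18.1 and 14.9 FPKM in Chi3l1 ko 1 to 4. Stat3 ko 4 was the highest library and the other Stat3 ko libraries the lowest 3 of the 12. Its difference in Stat3 ko against WT was -0.18 ± 0.19 (adjusted p = 0.53), and it passed without Stat3 ko 4 (-0.40, adjusted p = 0.027). Ier2 differed by -0.44 ± 0.19 (adjusted p = 0.12; 0.049 without Stat3 ko 4), Dusp1, a MAP kinase phosphatase gene, by -0.30 ± 0.23 (0.39) and Nr4a1, an orphan nuclear receptor gene, by 0.16 ± 0.41 (0.80). Dusp1 had 12.8 to 22.7 FPKM in WT and 6.69 to 11.6 FPKM in Chi3l1 ko without overlap, at a difference of -0.88 ± 0.23 that did not pass (unadjusted p = 0.0031, adjusted p = 1.0).

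Against Chi3l1 ko, 4 immediate-early genes rose in Stat3 ko (Egr2, Klf2, Klf4 and Arc) and 4 fell (Hspa1b, Hspa1a, Trib1 and Gadd45a). Over all genes 5.19% rose and 8% fell in this comparison. Klf4, an epithelial barrier factor, stood at 11.3 FPKM in Stat3 ko and 4.84 FPKM in Chi3l1 ko (1.03 ± 0.23, adjusted p = 0.018; 0.050 to 0.058 without Chi3l1 ko 1, Chi3l1 ko 3 or Chi3l1 ko 4). Arc rose by 0.88 ± 0.25 (adjusted p = 0.042), a call lost without Stat3 ko 2, Stat3 ko 3, Stat3 ko 4 or any single Chi3l1 ko library (0.052 to 0.111). Gadd45a, a growth arrest gene, fell by 0.64 ± 0.16 (adjusted p = 0.024), a call lost without Stat3 ko 2, Chi3l1 ko 1 or Chi3l1 ko 3 (0.054 to 0.065). In Chi3l1 ko against WT 0 of 38 were called by limma, edgeR or DESeq2, 4 had an unadjusted p under 0.05 by limma (1.63% of all genes), and the median was -0.08.

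Genes described as AP-1 targets were called in both directions, at larger shares than all genes (8.39% lower, 5.61% higher). The list was chosen with earlier results of these data known, so nothing is drawn from the larger shares. Of 27 tested (34 listed), 5 rose in Stat3 ko against WT (Vim, Mmp9, Areg, Tgfb1 and Plau) and 4 fell (Spp1, Nqo1, Tgm1 and Ptgs2), with a median of 0.08. Spp1, which encodes the secreted protein osteopontin, had 1386, 3395, 3018 and 895 FPKM in WT 1 to 4 and 38.2, 53.9, 47.9 and 116 FPKM in Stat3 ko 1 to 4. It fell by 4.99 ± 0.44 (adjusted p = 9.1e-05) and stood at 1363 to 2111 FPKM in Chi3l1 ko. Nqo1, a quinone reductase gene, had 25.8, 26.0, 28.5 and 21.1 FPKM in WT 1 to 4 and 4.56, 2.21, 2.39 and 5.62 FPKM in Stat3 ko 1 to 4. It fell by 2.55 ± 0.21 (adjusted p = 6.6e-05), a larger difference than that of Fos. Tgm1, a transglutaminase gene of cornified epithelium, fell by 1.23 ± 0.17 (adjusted p = 0.0021), from 12.2 to 13.1 FPKM in WT to 3.11 to 5.95 FPKM in Stat3 ko. Ptgs2, the inducible cyclooxygenase gene, fell by 0.91 ± 0.19 (adjusted p = 0.014) from 1.88 to 0.566 FPKM, on 15 to 113 counts per Stat3 ko library, and missed the threshold without the libraries with over 2% mitochondrial counts (0.077).

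The 5 target genes that rose lie outside the naming rule and were named after their values were seen. Vim, an intermediate filament gene of mesenchymal cells, had 42.5 to 70.9 FPKM in WT and 108 to 259 FPKM in Stat3 ko (1.34 ± 0.31, adjusted p = 0.020; 0.060 without WT 1 and 0.063 without WT 4). Mmp9, a matrix protease gene, had 0.190 to 0.804 FPKM in WT, on 12 to 54 counts, and 1.11 to 2.25 FPKM in Stat3 ko. Only its Stat3 ko libraries reached the 1 FPKM of the filter. Mmp9 rose by 0.86 ± 0.21 (adjusted p = 0.025), a call lost without WT 1 (0.082) or WT 4 (0.070). Areg, which encodes the EGF receptor ligand amphiregulin, had 12.1, 0.957, 14.7 and 8.67 FPKM in Stat3 ko 1 to 4 against 0.368 to 1.76 FPKM in WT. It rose by 1.96 ± 0.56 (adjusted p = 0.039), a call lost without any single WT library or without Stat3 ko 1, Stat3 ko 3 or Stat3 ko 4 (0.053 to 0.116). Tgfb1 (0.55 ± 0.15, adjusted p = 0.036) lost its call without WT 1, WT 3, WT 4 or Stat3 ko 2 (0.055 to 0.110). Plau, the urokinase gene (0.58 ± 0.15, adjusted p = 0.029), lost it without WT 1, WT 3 or Stat3 ko 1 (0.053 to 0.082). Against Chi3l1 ko, 4 rose in Stat3 ko (Vim, Mmp9, Areg and Tgfb1) and 5 fell (Spp1, Nqo1, Tgm1, Ptgs2 and Tnc). Over all genes 5.19% rose and 8% fell there. Tnc, a matrix gene named likewise, fell there by 1.46 ± 0.41 (adjusted p = 0.041), a call lost without Stat3 ko 1, Stat3 ko 2, Chi3l1 ko 1, Chi3l1 ko 2 or Chi3l1 ko 4 (0.064 to 0.108). In Chi3l1 ko against WT 0 of 27 were called by limma, edgeR or DESeq2, 1 had an unadjusted p under 0.05 by limma (1.63% of all genes), and the median was -0.05.

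With the 3 libraries of over 2% mitochondrial counts omitted, 12 list genes lost their call in Stat3 ko against WT: Atf6b, Atf7, Maf, Mafg, Mapk9, Klf2, Hspa1a, Trib1, Mmp9, Tgfb1, Plau and Ptgs2 (adjusted p of 0.0602 to 0.183). In Stat3 ko against Chi3l1 ko Egr2, Klf2, Hspa1b, Nqo1, Spp1 and Tgm1 were called with every single library left out in turn, and the other 14 of 20 called list genes lost their call without at least 1 library.

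The genes whose pattern over the 12 libraries was most like that of each called member were found by the root mean square difference of centred log2(FPKM + 1). For Fos, whose own root mean square around its mean was 0.848, they were Cited2 (0.193), Xbp1 (0.230) and Mdfi (0.238). Cited2, a transcriptional coregulator, averaged 87.3 ± 6.80 FPKM for WT, 25.9 ± 4.07 for Stat3 ko and 75.0 ± 12.3 for Chi3l1 ko. Xbp1, a bZIP factor of secretory cells, averaged 298 ± 27.0, 103 ± 24.1 and 295 ± 30.6 FPKM. Mdfi, which encodes an inhibitor of myogenic factors, averaged 11.5 ± 2.29, 3.31 ± 0.570 and 11.4 ± 1.43 FPKM. For Fosl2 (own value 0.652) they were Nlrp9b (0.200), Gm9910 (0.207) and Kctd1 (0.209), the last at 24.1 ± 2.68, 8.86 ± 2.06 and 22.4 ± 4.71 FPKM. Nlrp9b averaged 1.92, 0.305 and 1.40 FPKM for WT, Stat3 ko and Chi3l1 ko, and Gm9910 2.18, 0.275 and 1.55 FPKM. At such low levels the pseudocount of 1 shrinks the log2 differences that were matched. For Jund (own value 0.301) they were Tbc1d25 (0.0940), Stxbp2 (0.105) and Dpp3 (0.111).

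**Figure D5:**
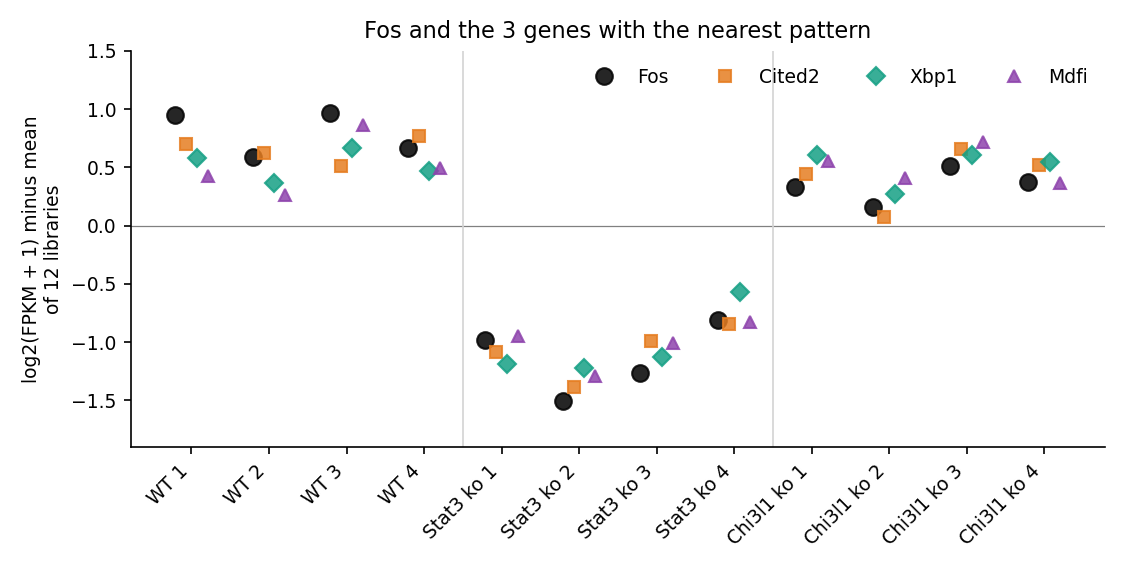
Centred log2(FPKM + 1) of Fos and of Cited2, Xbp1 and Mdfi in each of the 12 libraries, with vertical lines between the groups. All 4 genes lie below 0 in every Stat3 ko library and above 0 in every WT and Chi3l1 ko library, as the choice by likeness to Fos entails.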

How the data were processed

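Total RNA of 12 mammary glands in 3 groups of 4 was made into NEBNext Ultra II libraries, per the labels' protocols; strand use is not given in the sources used here. The submitters' processing notes list the builds mm10 and GRCm38 and the tools STAR, HTSeq, Trimmomatic, limma and edgeR, with no version or role. The authors deposited FPKM for 54532 genes with gene lengths, and comparison tables with raw counts, log2 fold changes and p-values, which hold genes with an unadjusted p under 0.05 only. FPKM times length gave whole counts for 100% of values within 0.001 read, and 0 of 55832 deposited counts compared differed.

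The design assumed FPKM, so limma 3.58.1 (R 4.3.3, trend on mean level) was applied to log2(FPKM + 1), pseudocount 1, of the 13643 genes that reached 1 FPKM in 4 or more of 12 libraries. The 3 group means shared one spread, tests were two-sided, and calls needed an adjusted p under 0.05 (Benjamini-Hochberg, over all genes). The procedure was tested on simulated data. Alternatives were a pseudocount of 0.1, no filter, median-of-ratios scaling, the compared groups alone, each library left out, the recovered counts with edgeR 4.0.16 (TMM, quasi-likelihood) or DESeq2 1.42.0, and, added after the data were seen, leaving out libraries with over 2% mitochondrial counts. Depth was 16217143 to 22607123 counts per library; Fosl1 rests on 20 to 45 counts per library. Text names all members, up to 4 called genes per list by lowest adjusted p, the 3 nearest genes of each called member, and Stat3 and Chil1; genes named outside this rule are marked. The members and the lists of related genes and cell markers were chosen with earlier results of these data known. A date-like spelling that a spreadsheet gave to 27 gene names was undone through the gene identifiers. Ddit3, whose symbol is shared by 2 identifiers, was left out of its list.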

Additional observations from a re-analysis of the deposited data

Results flagged for a closer look

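Among the 4 WT libraries, Junb in WT 4 stood apart at 67.7 FPKM from the other 3, which lay between 54.8 and 56.7 FPKM; the gap to the nearest was 0.846 of the group's range, above Dixon's critical value for 4 samples. It was 1 of 60 groups of 4 values checked, 30 of them of AP-1 members, and chance alone marks about 1 in 20 such groups.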

How the results depend on the processing

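Fos and Fosl2 were called in 16 of 16 settings both in Stat3 ko against WT (log2 differences of -2.04 to -1.81 and -1.61 to -1.29) and against Chi3l1 ko (-1.59 to -1.37 and -1.16 to -0.91). Among single-gene values under an alternative, 996 kept direction and side of the threshold, 202 lost a call, 16 gained one and 16 changed sign.

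The count of called members rose with DESeq2 from 3 to 5 in Stat3 ko against WT (Jun and Batf added) and from 2 to 4 against Chi3l1 ko (Jund and Batf added); with single libraries left out it ran from 2 to 5 and from 2 to 3. Without Stat3 ko 4 it was 5 against WT (Jun and Junb added). In Chi3l1 ko against WT it was 0 in all settings run. The shares of all genes called with a library left out are not given here, so nothing is drawn from those counts. DESeq2 called 3633 genes where limma called 1911 in Stat3 ko against WT, 3261 against 1799 in Stat3 ko against Chi3l1 ko, and 8 against 1 in Chi3l1 ko against WT. In Stat3 ko against WT the split of lower to higher calls was 1145 to 766 with limma, 1036 to 1323 with edgeR and 1541 to 2092 with DESeq2; the cause was not tested.

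Signs changed only for uncalled differences. In Stat3 ko against WT these were Atf3 (0.12), Maff (-0.069) and Egr1 (0.061) without the libraries with over 2% mitochondrial counts, Maff without Stat3 ko 1 (-0.0053; up to 0.12 without other libraries), and Nr4a1 without Stat3 ko 2 (-0.15; up to 0.65) or Stat3 ko 4 (-0.04). In Chi3l1 ko against WT these were Junb without WT 4 (0.04) or Chi3l1 ko 4 (0.045; down to -0.086), Maff without Chi3l1 ko 3 (0.025; down to -0.13), Egr1 without Chi3l1 ko 1 (0.012; down to -0.092), and Ier2 without Chi3l1 ko 2 or all libraries with over 2% mitochondrial counts (0.0085 in both; down to -0.090). In Stat3 ko against Chi3l1 ko these were Atf3 without Stat3 ko 3 (-0.05), Stat3 ko 4 (-0.14; up to 0.31) or Chi3l1 ko 2 (-0.03), and Egr1 without the libraries with over 2% mitochondrial counts (0.085). The cause was not tested.

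No paired analysis was possible because the labels give the groups no shared replicate numbers.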
